A study of Mus musculus with 14 samples.

Results

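The medial vestibular nucleus is a brainstem nucleus that receives the balance signals of the inner ear, and its inhibitory neurons fall into several types. Here the inhibitory type I1a was compared with the inhibitory type I1b over all genes. The comparison used the 2 arrays titled I1a and the 2 arrays titled I1b, that is 4 arrays of the 14 analysed, and each gene's difference is the mean of the I1a arrays minus the mean of the I1b arrays. Cells of both types came from brainstem of mice on the C57BL/6 background, 24 to 32 days old, that carried reporter transgenes. The 3 lines were YFP-16, GIN and GlyT2-13, in which regulatory sequences of Thy1, Gad1 and Slc6a5 drive the fluorescent protein. The labels give the same 3 lines for both types and do not say how many cells of each line entered each pool, nor is the number of cells per pool given in the sources used here. The cDNA of single neurons had been amplified, the neurons sorted into types by transmitter genes, ion channels and marker genes, and the cDNA of a type pooled. The genes used for that sorting are therefore no independent evidence of a difference between the types. The 2 arrays of a type are technical repeats of 1 pool, so that a difference is one between 2 pools, and no p-value across animals or cells can be given.

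Inhibitory neurons of this nucleus release GABA, glycine or both. Such cells synthesise GABA with the glutamate decarboxylases Gad1 and Gad2, take up glycine with Slc6a5 and load both transmitters into vesicles with Slc32a1. Vestibular neurons fire at high rates, and fast firing in the brainstem is known to rest on fast potassium channels of the Kv3 family and on resurgent sodium current. Large axons are rich in neurofilaments. Neurons of the dorsal hindbrain also keep transcription factors of their origin, such as those of the Zic, Pbx, Meis and Hox families.

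Values are log2 signals that start at a floor of 2.39, so that 1 unit is a 2-fold difference. Of 16244 genes, 4409 reached a mean of 5 in at least 1 of the 7 types and were compared. The I1a arrays were lower as a whole, with median signals of 6.35 to 6.46 in I1a and 6.59 to 6.71 in I1b, and the median difference over the 4409 genes was -0.22. The shift was negative at every signal level, between -0.14 among genes averaging 2 to 5 and -0.32 among those averaging 8 to 9. The hybridisation controls did not share it: all 18 probe sets for BioB, BioC, BioD and Cre were higher in I1a, by 0.21 to 1.01. The one with the widest gap, for BioB, read 9.43 and 8.35 in I1a and 7.64 and 8.11 in I1b. The I1a arrays thus lay about as far apart as the type means. Its level was not particular to I1a, with means of 9.62 in I3a, 8.98 in E2, 8.78 in I3b, 8.23 in E1 and 7.74 in I2. Of 9 probe sets for the labelling controls Lys, Dap and Phe, 1 was higher in I1a, and their median difference was -0.20. The part of these controls in the shift was not tested. Between the 2 arrays of a pool the technical SD was 0.28 in I1a and 0.22 in I1b, and 111 genes (2.52%) in I1a and 58 (1.32%) in I1b differed by 1 unit or more.

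A gene was called when the type means differed by at least 1 unit, both arrays of one type lay above both arrays of the other, and the higher mean was at least 5. This called 532 genes, 12.1% of those compared. Of these, 136 (3.08%) were higher in I1a and 396 (8.98%) were higher in I1b. These shares are the background for the counts of called list members below. The 38 lists were chosen with earlier results of these data known, so a list share above the background is no independent evidence. The split followed the overall shift: with each array centred on its median, 214 genes were higher in I1a and 231 higher in I1b, and with quantile normalization 212 and 244. The centred calls shared 367 genes with the deposited scale and the quantile calls 380, and none of the shared genes changed direction. A difference of 2 units or more was reached by 32 genes higher in I1a and 80 higher in I1b, one of 3 units or more by 10 and 24, and one of 4 units or more by 2 and 5. On the lower side, 71 of the 136 and 169 of the 396 lay under 5. Of the called genes, 210 were also called under quantile normalization, after centring, with values under 5 set to 5, with either array of each type left out, and by limma with the technical error, and these comprise 57 higher in I1a and 153 higher in I1b. In a pool, more cells with a transcript and more transcript per cell cannot be told apart.

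**Figure D1:**
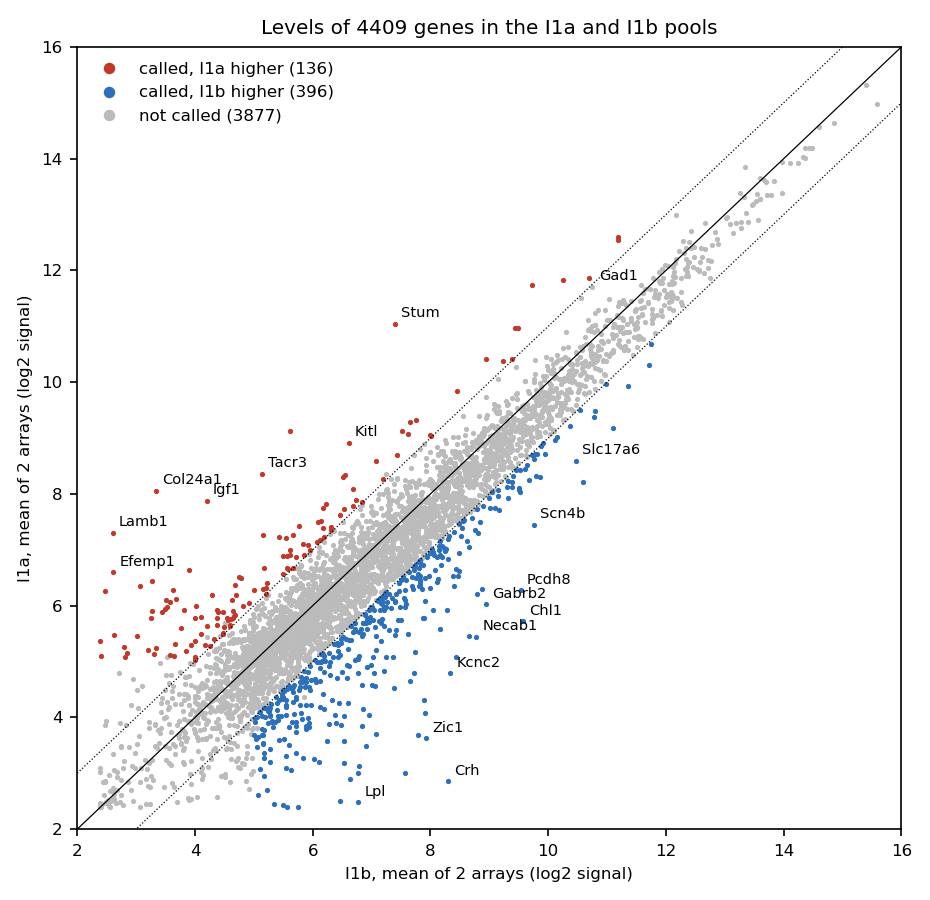
Each point is 1 of the 4409 genes compared, with the mean log2 signal of the 2 I1a arrays on the vertical axis and that of the 2 I1b arrays on the horizontal axis. The 136 genes called higher in I1a lie above the diagonal and the 396 called higher in I1b below it, with Col24a1 and Lamb1 far above it and Crh and Zic1 far below.

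Among the 21 pairs of the 7 pools, the 532 called genes put I1a and I1b in 7th place, counted from the pair with the fewest. The I1b pool differed from the excitatory type E1 in 258 genes, the fewest of any pair, and from the excitatory type E2 in 326. The I1a pool differed from E2 in 410 genes and from E1 in 481. Toward the other inhibitory types both were farther off, with 587 genes between I1a and I3b, 648 between I1b and I3b, 1114 between I1a and I2, and 888 between I1b and I2. Centring each array on its median left 445 genes between I1a and I1b and 246 between I1b and E1. These comparisons share arrays and are not independent of each other.

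**Figure D2:**
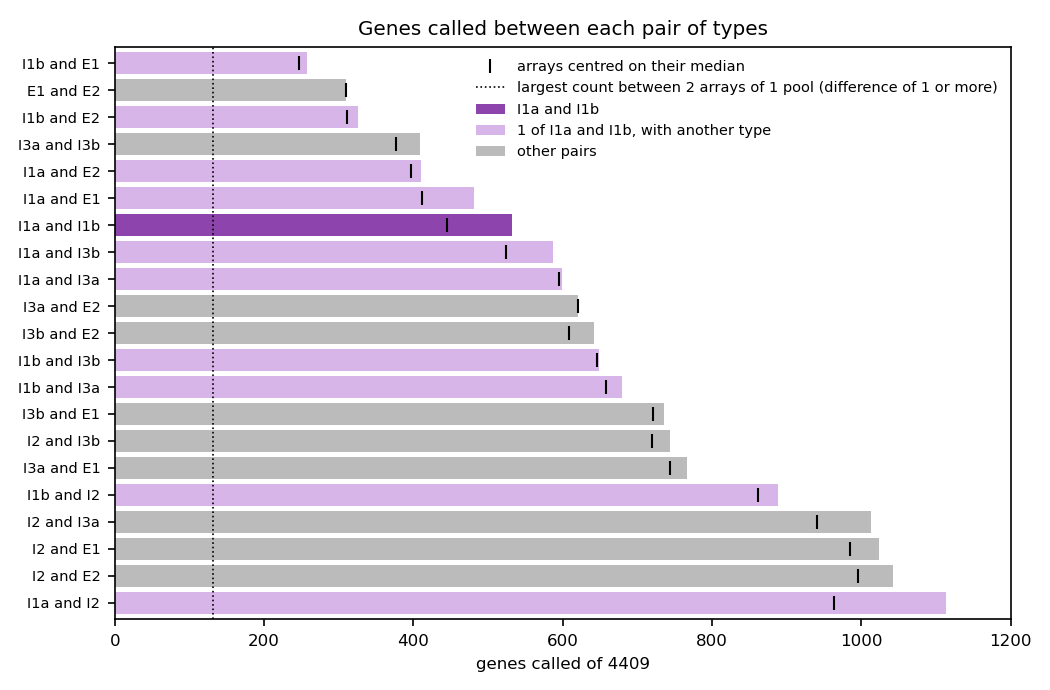
Bars give the number of genes called, of 4409, for each of the 21 pairs of pools, from fewest to most, with a tick for the count after centring and a dotted line at 131, the most genes that differed by 1 unit between the 2 arrays of any pool. The pair I1a and I1b stands at 532, above I1b and E1 at 258 and below I1a and I2 at 1114.

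The 3 largest differences toward I1a were those of Col24a1, Lamb1 and Efemp1, which encode matrix proteins. Col24a1, which encodes a fibrillar collagen chain, read 8.03 and 8.09 on the I1a arrays and 3.31 and 3.38 on the I1b arrays, a difference of 4.71 (chromosome 3, 145292472 to 145552013, GRCm38.p6). Lamb1, a laminin beta chain of basement membranes, read 7.25 and 7.36 in I1a and 2.78 and 2.42 in I1b, also 4.71, but a further probe set gave 1.28 and the mean of its probe sets 1.98, where the call was lost. Efemp1, the matrix glycoprotein fibulin-3, read 6.71 and 6.48 in I1a and 2.84 and 2.39 in I1b, a difference of 3.98. The arrays of the 2 types did not overlap for any of these, as a call requires, and the I1b values were near the floor. Their distribution over the other pools was not shared: Efemp1 stayed at 2.58 to 3.99 in all 5, Col24a1 reached 7.26 in I3b, and Lamb1 reached 9.25 in I3b and 7.15 in I2.

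Igf1, the growth factor insulin-like growth factor 1, read 7.92 and 7.84 in I1a and 3.99 and 4.41 in I1b, a difference of 3.68. Tacr3, the neurokinin B receptor, read 8.51 and 8.22 in I1a and 4.88 and 5.38 in I1b, a difference of 3.23. A further probe set of each gene pointed the same way, by 2.08 for Igf1 and 2.88 for Tacr3. Igf1 was higher still in I3b, at 9.45, and Tacr3 was higher than in I1a in I3b (11.38), I3a (10.79) and E1 (9.15). Stum, a gene named for a fly protein of mechanical sensing, read 11.08 and 11.02 in I1a and 7.36 and 7.43 in I1b, and so was 12.6-fold higher in I1a with all 4 arrays far above the floor. Klhl4 (3.80), Dsg2 (3.28), which encodes a desmoglein of cell junctions, Exph5 (3.17), Ccdc62 (2.98), Fmn1 (2.75), a formin that nucleates actin, Nfkbie (2.71), an inhibitor of NF-kappa-B, and St6galnac5 (2.64), a sialyltransferase, completed the group with St18, described below. Psg21 had a difference of 3.50 with wide technical spread, at 8.33 and 9.92 in I1a and 6.55 and 4.69 in I1b. With values under 5 set to 5, the calls of Ccdc62 (0.37), St18 (0.48) and Nfkbie (0.10) were lost. With the mean of all probe sets of a gene, those of Klhl4 (1.91), Dsg2 (0.82) and Nfkbie (1.45) were lost, and the I1b arrays of Dsg2 lay apart at 2.39 and 3.74.

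Genes among these for a collagen, a growth factor and a peptide receptor had a RefSeq promoter window. The 250 bases before an annotated start are shown for them as examples. Windows of Lamb1, Efemp1 and Zic1, whose differences were larger in size than those of Igf1 and Tacr3, are not shown. They held none of the motifs named below. On GRCm38.p6 the windows are chr3:145292222-145292471 for Col24a1, chr10:87860861-87861110 for Igf1, at a start inside the gene's annotated span, and chr3:134828757-134829006 for Tacr3, all on the plus strand. The Zic core CAGCAGG and the sequence TATAAA, searched on both strands, are in capitals.
Col24a1: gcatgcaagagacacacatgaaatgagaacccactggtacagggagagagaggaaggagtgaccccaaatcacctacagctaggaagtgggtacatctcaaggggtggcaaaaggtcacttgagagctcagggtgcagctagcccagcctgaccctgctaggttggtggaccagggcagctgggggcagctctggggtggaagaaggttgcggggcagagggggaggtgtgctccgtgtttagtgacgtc
Igf1: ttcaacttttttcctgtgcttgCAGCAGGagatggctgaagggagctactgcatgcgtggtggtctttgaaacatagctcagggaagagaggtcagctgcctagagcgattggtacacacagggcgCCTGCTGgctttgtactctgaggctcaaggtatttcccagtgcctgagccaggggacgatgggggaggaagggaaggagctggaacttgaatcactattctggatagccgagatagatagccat
Tacr3: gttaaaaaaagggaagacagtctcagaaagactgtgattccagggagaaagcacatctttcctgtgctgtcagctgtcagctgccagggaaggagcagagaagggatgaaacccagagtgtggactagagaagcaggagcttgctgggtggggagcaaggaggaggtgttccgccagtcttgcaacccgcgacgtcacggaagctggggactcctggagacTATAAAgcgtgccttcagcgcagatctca
The Igf1 window holds the Zic core on each strand, the minus-strand copy reading CCTGCTG, the Tacr3 window holds TATAAA, and the Col24a1 window holds neither. The Zic core stood in a window of 9.67% of all genes in the promoter table, in 9.95% of the genes compared, in 11.9% of the 101 genes higher in I1a that had a window and in 11.9% of the 320 higher in I1b. TATAAA stood in 14.3% of all genes in the table, in 8.11% of the genes compared, in 13.9% of those higher in I1a and in 9.06% of those higher in I1b. The Neurod E-box CAGATG stood in 16.3% of all genes in the table, in 11.5% of the genes compared, in 13.9% of those higher in I1a and in 12.5% of those higher in I1b. These are matches of letters only.

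As deposited, the difference of greatest size was that of Crh, toward I1b, with an I1a level near the floor. With values under 5 set to 5, Chl1 had a greater difference than Crh. Crh, the precursor of the peptide corticotropin-releasing hormone, read 2.90 and 2.83 in I1a and 8.14 and 8.45 in I1b, a difference of -5.43 (chromosome 3, 19693401 to 19695396, GRCm38.p6). Its I1a mean was the lowest of the 7 pools, where the others ran between 4.19 in I3b and 13.22 in E2. Zic1, a zinc finger transcription factor of dorsal neural tissue, read 3.29 and 3.96 in I1a and 7.93 and 7.91 in I1b, a difference of -4.29 (chromosome 9, 91358058 to 91365768). Zic1 was also near 8 or above in E1, E2 and I3a, with means of 8.28, 9.85 and 8.22, and near the floor in I2 and I3b, with 2.71 and 3.0.

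Lpl, the lipase that frees fatty acids from lipoproteins, read 2.39 and 2.59 in I1a and 6.93 and 6.63 in I1b, a difference of -4.29. Reln, the secreted guidance glycoprotein reelin, read 2.55 and 3.72 in I1a and 6.79 and 6.77 in I1b, a difference of -3.65. Chl1, a cell adhesion molecule of the L1 family, read 5.91 and 5.55 in I1a and 9.51 and 9.64 in I1b, a difference of -3.85, and was above the floor in both. Hspb8, a small heat shock protein, differed by -4.10, although its I1a arrays lay far apart at 2.60 and 4.77, against 7.93 and 7.64 in I1b. The remaining genes of this rank were Kif22, a kinesin (-4.55), Cadps2, which primes dense-core vesicles (-3.96), Rreb1, a zinc finger factor (-3.84), Fhod3, a formin (-3.76), Pde4b, a cyclic AMP phosphodiesterase (-3.74), Cntnap5a (-3.59), Kcnc2 (-3.55), Hadh, an enzyme of fatty acid oxidation (-3.42), and Kcnab1 (-3.37). Each of the 15 was called under the 6 checks named above, but with the mean of all probe sets of a gene the calls of Kif22 (-1.5), Pde4b (-0.85), Reln (-1.85) and Hadh (-1.70) were lost.

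**Figure D3:**
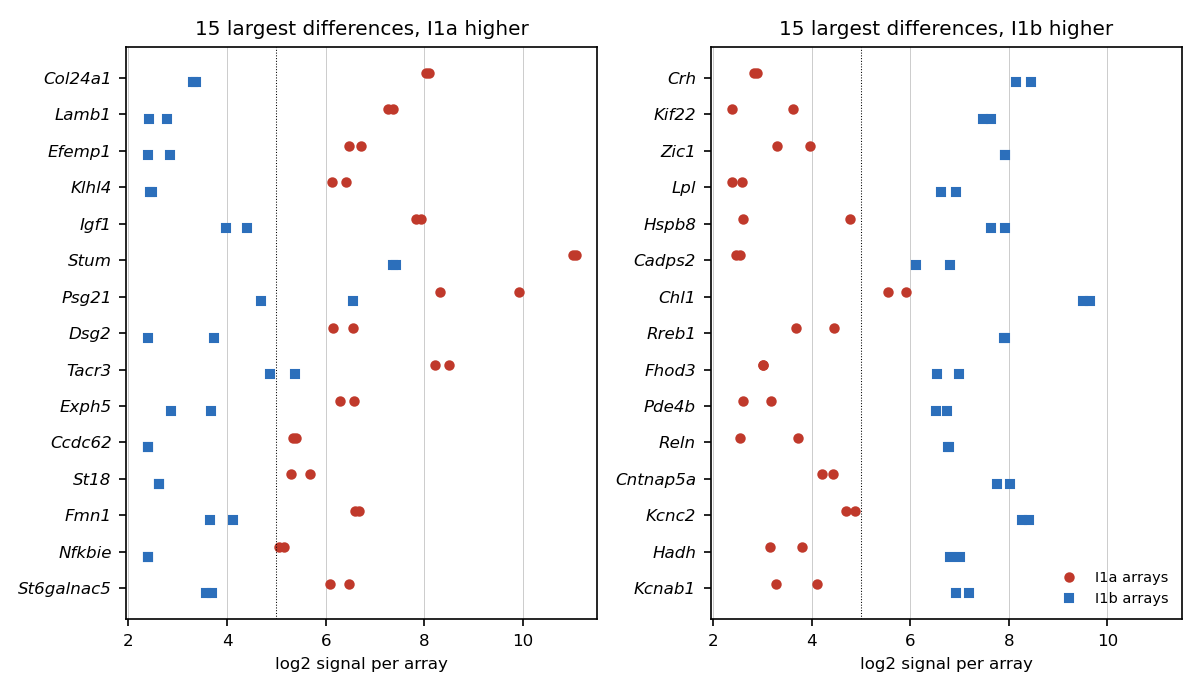
Points are log2 signals of single arrays, circles for I1a and squares for I1b, for the 15 largest differences in each direction, and the dotted line marks the level of 5. The arrays of the types do not overlap for any of the 30 genes, as the calling rule requires. The widest technical gaps are those of Psg21 in both types and of Hspb8 in I1a.

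**Figure D4:**
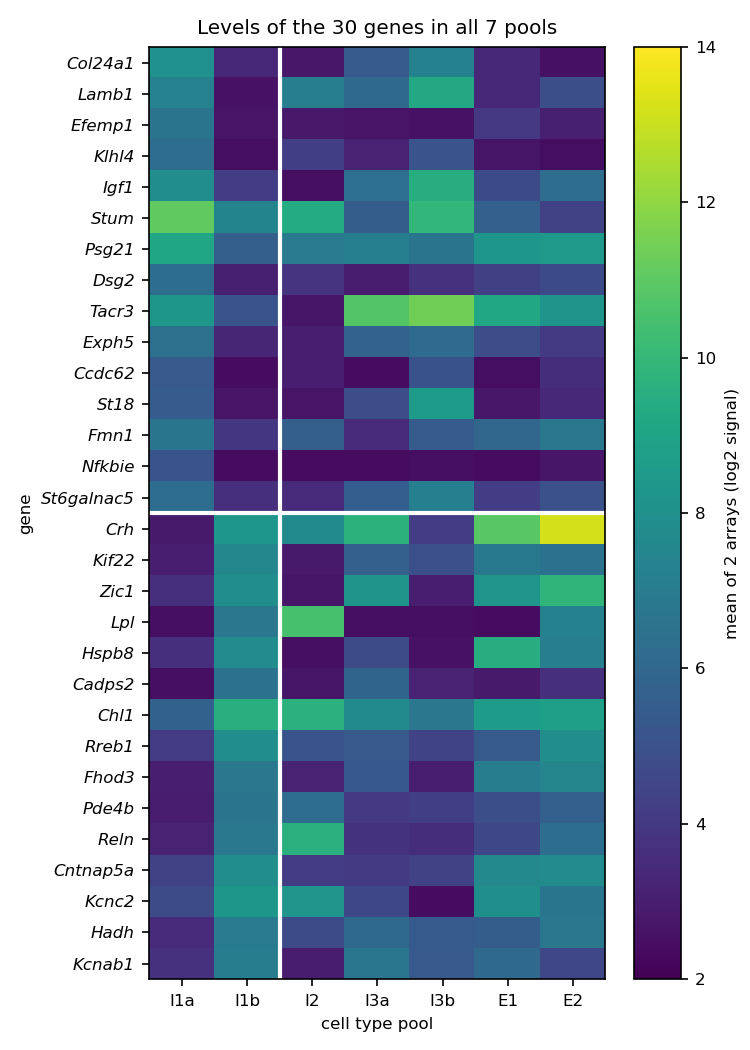
Colours give the mean log2 signal of the 2 arrays of each of the 7 pools, I1a and I1b at the left, for the same 30 genes, those higher in I1a above the white line and those higher in I1b below it. Zic1 and Crh are low in I1a and high in I1b, I3a, E1 and E2, and Crh is high in I2 as well. Col24a1, Igf1 and Tacr3 are higher in I1a, I3a and I3b than in I1b, and Igf1 and Tacr3 also in E1 and E2.

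Some transmitter genes served to sort the cells, so their levels are no independent evidence that both pools are inhibitory. As deposited, the only transmitter gene called was a glutamate transporter. Gad1 read 11.77 and 11.65 in I1a and 10.80 and 10.71 in I1b, a difference of 0.96 that missed the threshold of 1 and passed it at 1.20 after centring. Gad2 differed by 0.49, Slc6a5 by 0.25 and Slc32a1 by 0.12, and none of these was called on any scale. Slc17a6, the vesicular glutamate transporter VGLUT2, read 8.66 and 8.53 in I1a and 10.48 and 10.48 in I1b, a difference of -1.88, which is 3.68-fold (chromosome 7, 51621830 to 51671126). The I1b level stood close to the 11.11 and 10.98 of E1 and E2, while I2, I3a and I3b had 3.11, 6.93 and 3.19. Abat, which breaks down GABA, differed by -0.73. Slc1a1, a neuronal glutamate uptake carrier, had the same mean level in both pools, and the noradrenaline genes Dbh (-0.21) and Slc6a2 (-0.77) were not called.

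Apart from Crh, peptide genes gave no call. Of 33 precursors and granins, 27 were measured and 12 compared, and their median difference was -0.09. The granins Scg2 (-0.19) and Scg3 (0.23), which line dense-core vesicles, were alike in level. Cck, the cholecystokinin precursor, read 4.84 and 4.75 in I1a and 2.75 and 2.66 in I1b, and its difference of 2.10 was not called because no mean reached 5. Of 4 peptide receptors compared, Tacr3 was called toward I1a and Npy5r, a neuropeptide Y receptor, toward I1b (-1.08), a call lost after centring. All 5 monoamine and acetylcholine receptors compared had negative differences, and 2 were called toward I1b (40%, beside 8.98% of all genes). These were Htr1d at 4.79 and 4.64 in I1a and 6.34 and 6.49 in I1b (-1.70), and Htr7 (-1.41), whose call was lost after centring. Both are serotonin receptors. Htr1d (-1.37) lost its call with the mean of probe sets, and with values under 5 set to 5 Htr7 (-0.05) and Npy5r (-0.99).

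Transcription factors divided the pools in both directions. Of 4 Zic, Pbx and Meis genes compared, 3 were called (75%), each toward I1b and on each scale, beside 8.98% of all genes toward I1b. The list's median was -1.77 as deposited and -1.53 after centring. Besides Zic1, Pbx3 read 5.99 and 5.87 in I1a and 8.05 and 8.03 in I1b (-2.11). Meis2 averaged 9.93 in I1a and 11.36 in I1b (-1.43). Meis2 (-0.77) lost its call with the mean of its probe sets. Pbx and Meis proteins bind DNA as partners of Hox proteins. Of 2 Hox genes compared, Hoxb3 read 5.56 and 5.61 in I1a and 6.99 and 6.87 in I1b (-1.34), and Hoxa5 differed by -0.34.

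Among 14 other factors of neuronal identity that were compared, 6 were called toward I1a on each scale, and 2 toward I1b (57.1% in either direction, beside 12.1% of all genes). The list's median was 0.12, beside -0.22 over all genes. St18, a zinc finger factor of the Myt1 family, read 5.68 and 5.29 in I1a and 2.62 and 2.63 in I1b (2.86). Tcf4, an E protein that pairs with bHLH factors, read 6.23 and 5.98 in I1a and 3.52 and 3.48 in I1b (2.60). The bHLH factors Neurod6 (2.52) and Neurod1 (1.67), the factor Ebf3 (1.76) and the nuclear receptor Nr2f2 (1.16) also lay toward I1a. With values under 5 set to 5, St18 (0.48) and Neurod6 (0.77) lost their calls, and with the mean of probe sets Tcf4 (1.84) did. A further probe set of Tcf4 pointed the same way, by 2.93. In I3b, St18 had 8.54, Tcf4 7.63, Neurod6 6.34, Ebf3 8.37 and Neurod1 8.44. The I3a pool also lay above I1a for Tcf4 (7.46), Ebf3 (8.24) and Neurod1 (8.30), but below it for St18 (4.82) and Neurod6 (3.44). Toward I1b, Cux2 (-1.03) lost its call after centring, and Satb1 (-1.47) had a further probe set of the opposite direction (0.81). Esrrg, an orphan nuclear receptor, was at 9.82 and 9.69 in I1a and 10.04 and 9.96 in I1b.

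Of 10 channel genes tied to fast firing that were compared, 4 were called toward I1b (beside 8.98% of all genes) and none toward I1a, 3 of them also after centring. Some of these genes may have served to sort the cells. All 10 differences were negative, with a median of -0.86 as deposited and -0.62 after centring. Kcnc2, a Kv3 potassium channel, read 4.70 and 4.88 in I1a and 8.26 and 8.42 in I1b (-3.55). Scn4b, the sodium channel beta subunit linked to resurgent current, read 7.61 and 7.29 in I1a and 9.76 and 9.74 in I1b (-2.30), with E1 at 10.15 and I3b at 2.82. Kcnab1, a beta subunit of Kv1 channels, read 3.28 and 4.11 in I1a and 6.94 and 7.20 in I1b (-3.37). Kcna2, a Kv1 channel of axons, had -1.10, and its call was lost on both other scales and with the mean of probe sets (-0.68). Kcnc1, a further Kv3 channel, was high in both, at 10.60 and 10.33 in I1a and 10.76 and 10.83 in I1b.

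Other channels were called in either direction. Of 17 voltage-gated potassium channel genes compared, which include Kcnc2, Kcna2 and Kcnab1, 1 was called toward I1a and 4 toward I1b. Together these are 29.4%, beside 12.1% of all genes. Kcna4, an A-type channel, read 9.64 and 9.0 in I1a and 7.74 and 7.78 in I1b (1.56), and Kcnq3, an M-current subunit, read 6.45 and 6.25 in I1a and 7.86 and 7.75 in I1b (-1.45). Kcnn2, a calcium-activated SK channel, was toward I1a at 6.07 and 5.70, against 4.77 and 4.0 in I1b (1.5). Kcnj3, a G protein-gated channel, was toward I1b (-1.07) as deposited and lost its call after centring. With values under 5 set to 5, Kcnn2 (0.88) lost its call. Of 11 sodium channel and FGF homologous factor genes, 3 were called, all toward I1b on each scale (27.3%, beside 8.98% of all genes). They were Scn4b, Fgf13 (-1.70), which modulates sodium channels, and Scn2a (-1.44). Of 5 calcium channel genes, 1 was called (20%, beside 12.1% of all genes). It was Cacna2d3, an auxiliary subunit, at 3.63 and 3.58 in I1a and 5.38 and 5.64 in I1b (-1.91). That call was lost with values under 5 set to 5 (-0.51). The A-type channel Kcnd2 (0.34), the leak channel Nalcn (0.07) and the N-type calcium channel Cacna1b (0.20) did not pass the threshold.

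Neurofilament genes showed a similar direction. Nefh, the heavy chain, read 7.79 and 7.63 in I1a and 9.10 and 9.22 in I1b (-1.45), a call that held on each scale. Nefm (-1.0), the medium chain, and Ina (-1.20), alpha-internexin, were called as deposited but not after centring or quantile normalization, and a further probe set of Ina gave 0.35. Nefl, the light chain, differed by -0.28, and so 3 of the 4 genes compared were called as deposited and 1 after centring. As deposited this is 75%, beside 8.98% of all genes toward I1b.

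**Figure D5:**
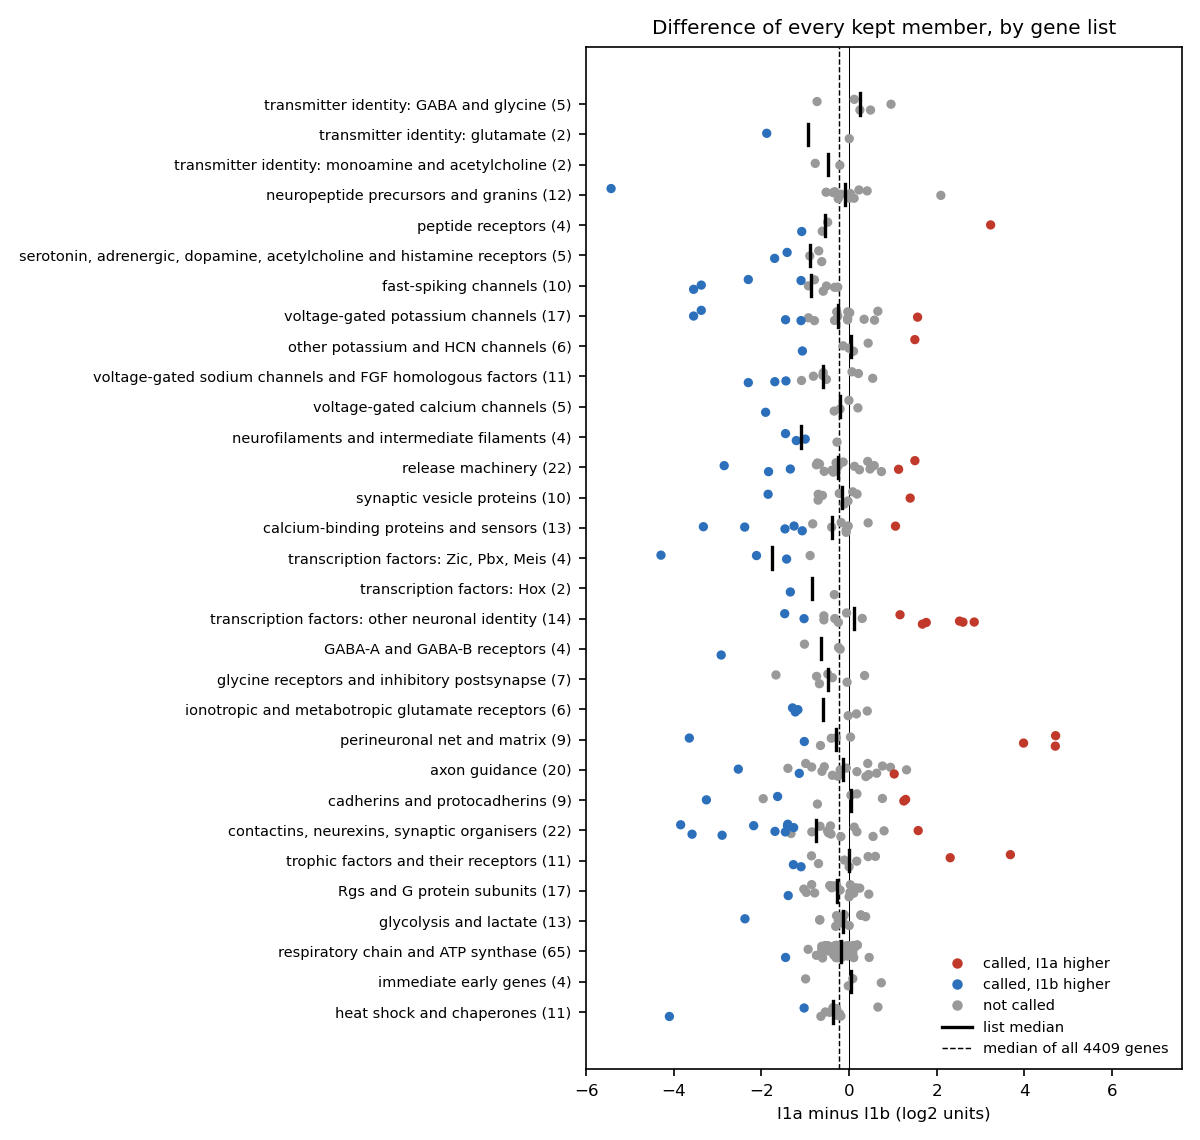
Each point is the difference, I1a minus I1b in log2 units, of a compared gene in the list named at the left, with the number compared in brackets, the list median as a vertical bar and the median of all 4409 genes (-0.22) as a dashed line. The Zic, Pbx and Meis list (-1.77), the neurofilaments (-1.10) and the fast-spiking channels (-0.86) have medians below that line, and the matrix list holds the points farthest to the right.

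Of 22 release machinery genes compared, 2 were called toward I1a and 3 toward I1b (22.7%, beside 12.1% of all genes), with a median of -0.26. Unc13c, a Munc13 protein that primes vesicles, read 4.31 and 4.75 in I1a and 7.34 and 7.42 in I1b (-2.85). Syt2, the fast calcium sensor of release, read 6.06 and 6.09 in I1a and 7.85 and 7.98 in I1b (-1.84), with E1 at 8.05 and I3b at 2.97. Cplx2, a complexin that clamps SNARE complexes, had -1.34. Toward I1a lay Stx1a, a SNARE protein of the plasma membrane, at 6.27 and 6.12, against 4.63 and 4.76 in I1b (1.5), and the active zone gene Rims2 (1.13). Cplx1 (-0.14), Rab3a (0.12) and Snap47 (-0.26) were strongly expressed in both and close to equal. Among 10 vesicle proteins, 2 were called (20%, beside 12.1% of all genes). Sv2b was toward I1b (-1.85) and Sypl, a synaptophysin relative, toward I1a (1.39), a call lost without replicate 1. With the mean of probe sets, the calls of Unc13c (-1.44), Stx1a (0.75), Cplx2 (-0.67), Rims2 (0.12) and Sypl (0.55) were lost, and with values under 5 set to 5 those of Rims2 (0.30), Sv2b (-0.82) and Sypl (0.50).

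Calcium-binding proteins and sensors gave 6 calls among 13 genes compared (46.2%, beside 12.1% of all genes). Necab1, a neuronal EF-hand protein, read 5.62 and 5.27 in I1a and 8.76 and 8.79 in I1b (-3.33). S100a10 read 5.0 and 4.65 in I1a and 7.04 and 7.38 in I1b (-2.38). Hpcal1 (-1.46), S100b (-1.26) and the visinin-like sensor Vsnl1 (-1.07) were also toward I1b. The calls of Vsnl1, after centring, and of S100b, after quantile normalization, were lost. Pvalb, which encodes the calcium buffer parvalbumin, was the only member called toward I1a, at 9.10 and 8.99, against 7.97 and 8.01 in I1b (1.06), and its call was lost without replicate 1. S100a10 (-0.79) lost its call with the mean of probe sets, and with values under 5 set to 5 Hpcal1 (-0.99). Pcp4 (-0.40) and Caln1 (-0.07) were not called.

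Among receptor genes for fast transmitters, calls were in the GABA and glutamate lists. Gabrb2, a GABA-A receptor beta subunit, read 5.93 and 6.12 in I1a and 8.82 and 9.07 in I1b (-2.92), and was the only one called of 4 GABA receptor genes compared, with Gabbr1 at -0.24. None of 7 genes of glycine receptors and the inhibitory postsynapse was called, among them the receptor subunit Glrb (-0.05) and the chloride extruder Slc12a5 (-0.38). Gphn, the scaffold gephyrin, read 3.41 and 2.91 in I1a and 4.47 and 5.20 in I1b, below the level needed for a call. Of 6 glutamate receptor genes, 3 were called, all toward I1b (50%, beside 8.98% of all genes). The AMPA receptor subunit Gria4 (-1.29) was toward I1b on each scale, while Grid1 (-1.23) and the metabotropic receptor Grm7 (-1.17) lost their calls after centring. Gria4 (-0.67) also lost its call with the mean of probe sets.

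Of 22 contactin, neurexin and synaptic organiser genes compared, 1 was called toward I1a and 9 toward I1b (45.5%). Of all genes compared, 3.08% were called toward I1a and 8.98% toward I1b. The median was -0.76 as deposited and -0.51 after centring, where 9 remained toward I1b and 2 lay toward I1a. Cntnap5a, a contactin-associated protein, read 4.42 and 4.20 in I1a and 7.76 and 8.03 in I1b (-3.59). Cntn3, a contactin, read 3.91 and 4.19 in I1a and 6.72 and 7.18 in I1b (-2.90). Nrn1, the GPI-anchored neuritin, read 5.06 and 5.09 in I1a and 7.14 and 7.36 in I1b (-2.18). Slitrk2 (-1.69), Cbln4 (-1.45), Thy1 (-1.41), C1ql3 (-1.40) and Cntnap2 (-1.27) were also toward I1b. Thy1 is the gene whose regulatory sequences drive the YFP-16 reporter, and a part of line composition in its difference was not tested. Cd24a, a GPI-anchored glycoprotein, was toward I1a at 11.84 and 11.81, against 10.26 and 10.23 in I1b (1.58), and a further probe set gave 1.51. Nrcam (-0.19), L1cam (0.12) and Nrxn3 (-0.41) were not called.

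Protocadherins differed by member. Pcdh8, an activity-regulated protocadherin, read 6.58 and 5.97 in I1a and 9.61 and 9.46 in I1b (-3.26), with a further probe set at -2.86, and Pcdh10 had -1.63. Cdh7 (1.29) and Pcdh11x (1.25) were toward I1a, the call of Pcdh11x being lost without replicate 1. Pcdh10 (-0.48) and Cdh7 (0.63) lost their calls with the mean of probe sets. Pcdh9 read 11.06 and 10.94 in I1a and 10.95 and 10.97 in I1b. Of 20 axon guidance genes compared, 3 were called as deposited (15%, near the 12.1% of all genes). Sema3c, a secreted semaphorin, read 2.47 and 2.92 in I1a and 4.86 and 5.59 in I1b (-2.53). The others were the ephrin receptors Ephb1 (-1.14) and Epha5 (1.03). Sema3c (-0.29) was lost with values under 5 set to 5, and Epha5 (0.43) with the mean of probe sets. After centring Ephb1 was lost, and Sema3e (0.76 as deposited, 1.0 centred) and Sema7a (0.94 and 1.19) were called toward I1a. Of 9 matrix genes compared, 5 were called (55.6%, beside 12.1% of all genes), in a list chosen with earlier results of these data known. Col24a1, Lamb1 and Efemp1 were toward I1a, Reln toward I1b and Timp2, a protease inhibitor, toward I1b only as deposited (-1.02). Bcan, the perineuronal net proteoglycan brevican, differed by 0.03 and Sparcl1 by -0.29, and neither was called.

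Of 11 trophic factor and receptor genes compared, 2 were called toward I1a and 2 toward I1b (36.4%, beside 12.1% of all genes). Kitl, the ligand of the Kit receptor, read 9.06 and 8.78 in I1a and 6.51 and 6.71 in I1b (2.31), and with Igf1 was toward I1a on each scale. Lifr, the receptor of leukaemia inhibitory factor (-1.27), and Nrg3, a neuregulin (-1.10), were toward I1b as deposited, and neither held under quantile normalization or with the mean of probe sets (-0.64 and -0.55). Of 17 genes of Rgs proteins and G protein subunits, 1 was called (5.9%, beside 12.1% of all genes). Rgs4, which speeds the shut-off of G protein signals, read 8.03 and 7.83 in I1a and 9.27 and 9.38 in I1b (-1.39). Ldha, a lactate dehydrogenase subunit, read 8.41 and 8.03 in I1a and 10.53 and 10.67 in I1b (-2.38), and I1a had the lowest mean of the 7 pools. It was the only call of 13 glycolysis genes (7.7%, beside 12.1% of all genes). The G protein subunits Gnai1 (0.45) and Gnaq (-0.21) and the regulator Rgs2 (0.10) were not called. Ldhb, the partner subunit of Ldha, read 12.62 and 12.78 in I1a and 12.45 and 12.42 in I1b.

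Of 65 respiratory chain and ATP synthase genes compared, 56 had negative differences, but the median was -0.18, beside -0.22 over all genes, and only Cox7c was called (-1.45), a call lost with the mean of probe sets (-0.96). Cox5a read 14.56 and 14.59 in I1a and 14.62 and 14.60 in I1b, near the top of the scale. Of 4 immediate early genes none was called, with a median of 0.03. Of 11 heat shock genes, Hspb8 was called on each scale and Hsph1 (-1.03) only as deposited.

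Markers of other cell types were mostly at the floor in both pools. Of 9 astrocyte markers measured, Gfap, Aqp4, Aldh1l1, Slc1a3 and Slc1a2 were at 2.39 in both, while S100b averaged 6.50 in I1a and 7.76 in I1b. Of 10 oligodendrocyte markers, Mog, Cldn11, Opalin, Olig1 and Olig2 were at 2.39 in both. Mbp read 2.42 and 2.43 in I1a and 5.36 and 5.63 in I1b (-3.07), and Cnp 4.85 and 5.01 in I1a and 6.48 and 6.76 in I1b (-1.69). Both encode proteins of myelin, and they were the 2 called members of that list. With the mean of probe sets the calls of Mbp (-1.03) and Cnp (-0.84) were lost, and with values under 5 set to 5 that of Mbp (-0.50). The summed log2 level of the 10 markers was 29.38 to 29.75 on the I1a arrays and 34.07 to 34.24 on the I1b arrays. Mbp and Cnp alone account for the gap between these sums, and the other markers together did not add to it. The part of other cells' RNA in these differences was not tested. None of 6 microglial markers reached 5 in any pool, and no endothelial marker was called. Neuronal markers were high in both, as with Snap25 at 12.90 in I1a and 13.57 in I1b, Map2 at 9.11 in I1a and 9.52 in I1b, and Rbfox3 at 8.55 in I1a and 9.48 in I1b. Xist was at 2.48 in I1a and 2.39 in I1b, and the Y-linked Kdm5d at 5.89 in I1a and 5.61 in I1b.

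The called genes were also placed among all 7 pools. Of the 136 genes higher in I1a, I1a lay above each of the other 6 pools in 65 and I1b below each of them in 48. Of the 396 genes higher in I1b, I1a lay below each other pool in 189 and I1b above each in 154. Over all 4409 genes, I1a was the lowest pool in 23.2% and the highest in 6.62%, and I1b was the highest in 13.5% and the lowest in 7.42%. The called genes were picked for a gap between I1a and I1b, which by itself favours such extreme places. Their counts are therefore not a like-for-like match to these shares. The I3b pool was nearer to I1a than to I1b in 86 of the 136 genes (63.2%), beside 50.1% of all genes. Among the 396 this held for 215 (54.3%). The E1 pool was nearer to I1b than to I1a in 269 of the 396 (67.9%), beside 59.4% of all genes. Among the 136 it was so in 89 (65.4%), and thus E1 leaned to I1b in both sets. Beyond the probe sets compared, 41 called genes had 53 further probe sets, of which 43 had the same direction and 10, in 9 genes, the opposite one.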

How the data were processed

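The authors pooled amplified single-cell cDNA by type, made labelled cRNA and hybridised each pool to 2 Affymetrix arrays, per the labels' protocols. The deposited values are log2 signals made with affy and GCRMA, per the submitters' processing notes, and versions are not given in the sources used here. The table has 30843 probe sets: 64 controls, 24034 with 1 symbol, 477 with several symbols and 6268 with none. By Entrez identifier 23883 matched RefSeq on GRCm38.p6, the source of coordinates and promoters. Each of 16244 genes took its probe set with the highest mean over the 14 arrays.

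Type means of the 2 technical arrays were subtracted, I1a minus I1b, for the 4409 genes with a mean of 5 or more in any of the 7 types. A call needed a difference of 1, arrays that do not overlap and a higher mean of 5. No p-value was used for it. In arrays no depth is defined, and 2 arrays a type limit the precision. Alternatives were another normalization, filter, threshold, probe set rule, each replicate number left out, and limma 3.58.1 (R 4.3.3) on 14 arrays with technical error, with and without a replicate block. Scripts used Python 3.11.15 with pandas 2.3.3 and matplotlib 3.10.9, and the calling and limma steps were tested on simulated data.

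The text names the 15 largest differences in each direction, up to 5 called members of each gene list by size, and up to 3 uncalled members at a level of 8 with a difference under 0.5. Genes added to complete a list's account were chosen after their values were seen. The 38 lists and the comparison were chosen with earlier results of these data known. The same number on arrays of the 2 types does not pair them: the correlation of their deviations was -0.11 for I1a and I1b, and 4 of 21 pairs of types exceeded 0.1.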

Additional observations from a re-analysis of the deposited data

How the results depend on the processing

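The count of 532 called genes, 136 higher in I1a and 396 higher in I1b depended on filters, thresholds, the probe set rule and scaling. A filter at 7 gave 246 (52 and 194), no filter on low signal gave 730 with 206 higher in I1a, values under 5 set to 5 gave 365 with 84 higher in I1a, and a difference of 2 gave 112 (32 and 80). The mean of all probe sets of a gene gave 276 (58 and 218). Quantile normalization gave 212 and 244, and centring 214 and 231, in which the overall shift of -0.22 is removed by construction. Leaving out 1 replicate number gave 529 to 756 in both directions, 173 to 178 higher in I1a and 351 to 583 higher in I1b. The limma fit with technical error called 579 genes at an adjusted p under 0.05, 520 of them shared, and this compares pools and not animals. With the replicate number as a block it called 579 (146 and 433), and with crossed numbers, an alternative chosen after seeing the data, 582 (150 and 432). No shared call changed direction in any of these settings. Called genes added to complete a list's account, such as Pvalb, are not in the following tally. Of the 90 called genes named by the rules of size, 21 kept the call in every setting and 69 lost it in at least 1. Losses were most frequent at a difference of 2 (45), the filter at 7 (39) and the mean of probe sets (32). Where the mean of probe sets lost a call at a difference still over 1, the level or the overlap of arrays failed the rule, not the size. With values under 5 set to 5, 15 of the 90 were lost. Among the 90, without replicate 1 the calls of Epha5 (0.72), Hpcal1 (-0.86), Sypl (0.91), Nefm (-0.91) and Pcdh11x (0.99) were lost. Without replicate 2 those of Npy5r (-0.64), Timp2 (-0.84), Hsph1 (-0.86), Vsnl1 (-0.93), Ephb1 and Kcna2 (-0.94 each), Grm7 and Grid1 (-0.98 each), Kcnj3, Ina, Nrg3, Htr7 (-1.40) and Sema3c (-2.39) were lost, Htr7 and Sema3c because the higher level was then under 5. Low signals limit the rest, since the lower side of many calls lies under 5.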
